A study of Mus musculus with 46 samples.

Results

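Ribosome stalling and quality control factors were read out in murine EPP2 pancreatic cancer cells with and without the tRNA-modifying enzyme Ctu1, and with and without the mTOR kinase inhibitor torin 1. The set holds 10 genes, chosen by name from 10464 gene symbols in the deposited count tables: Zfp598, Edf1, Gigyf2, Ascc3, Pelo, Hbs1l, Nemf, Ltn1, Gcn1 and Map3k20. All 10 had counts in the tables of either treatment and passed the filter on low counts in every comparison. Ribosome footprints and poly(A) RNA came from the same 23 cultures: 6 control cultures with DMSO, 6 control cultures with torin 1, 5 Ctu1 iKO cultures with DMSO and 6 Ctu1 iKO cultures with torin 1. The cells carried doxycycline-inducible Cas9, and the knockout (Ctu1 iKO) was induced with 300 ng/mL doxycycline from 4 days before the experiment in cells with guide RNAs against Ctu1. Control cells were described in the study's methods as carrying guide RNAs against non-coding regions or as left without doxycycline, and which of these the control libraries were is not stated. Torin 1 (300 nM) or DMSO was given for 2 h. The inducible Cas9 line used for the study's screen was a single cell-derived clone. The keratins Krt8 and Krt18, which mark epithelial cells, had 89.4 to 224 CPM (counts per 1000000, scaled by TMM) in all 23 footprint libraries, while Epcam and Cdh1 were not among the genes listed in both tables.

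When a ribosome stalls on an mRNA, the ribosome behind it runs into it, and the interface of the collided pair is the signal that cells read. Zfp598 is the ubiquitin ligase that marks 40S proteins of such pairs, Edf1 binds them and recruits the translational repressor Gigyf2, and Ascc3 is the helicase of the ASC-1 complex that pulls the leading ribosome apart. Pelo and its GTPase Hbs1l enter stalled or empty ribosomes and prepare them for splitting. Nemf binds the 60S subunit that is left with an unfinished peptide, and Ltn1 ubiquitylates that peptide for degradation. Gcn1 sits on collided ribosomes and activates the eIF2α kinase Gcn2, and Map3k20 encodes ZAK, the kinase that passes a collision on to p38 and JNK. Ctu1 thiolates the wobble uridine of tRNAs that read AAA, GAA and CAA (VAA codons), which is why the coding sequences of the factors themselves are described first.

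VAA codons made up between 2.73% (Gcn1) and 14.8% (Nemf) of the codons of the 10 genes, counted in 1 coding sequence per gene of GENCODE M21. The median of 10346 listed genes with a coding sequence was 6.04%, with quartiles of 3.93% and 8.62%. The 10 genes had a median of 7.79%, and 7 of them lay above the median of all genes. Nemf had a higher share than 97.3% of all genes, with 72 AAA, 70 GAA and 16 CAA among 1064 codons. Gigyf2 followed with 13.1%, owing to 94 GAA and 38 CAA codons, and had a higher share than 95.0% of all genes. Ascc3 (10.3%), Hbs1l (9.53%) and Ltn1 (8.72%) were also in the upper quartile. Map3k20 (6.86%), Edf1 (6.76%) and Pelo (5.19%) were near the middle, whereas Zfp598 (3.63%) and Gcn1 were low. For AAA alone, Nemf (6.77%) and Edf1 (4.73%) were highest, against a median of 2.15% over all genes. These are properties of the annotated sequences, without replicates.

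**Figure D1:**
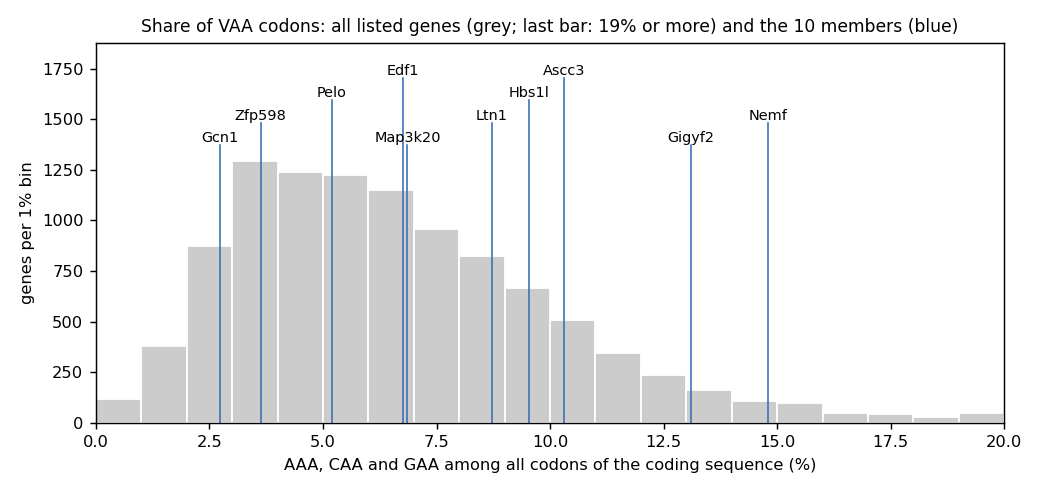
The horizontal axis gives AAA, CAA and GAA together as a percentage of all codons, and the vertical axis the number of listed genes per bin, with genes of 19% or more in the last bar. Blue lines mark the 10 factors, from Gcn1 at 2.73% to Nemf at 14.8%.

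The windows of 20 codons that hold the most VAA codons are shown for the 3 factors with the densest stretches, and for Gcn1 as the factor with the lowest share. Over all genes, the densest window held a median of 5 VAA codons, with quartiles of 3 and 6. The factors shown have from 1064 (Nemf) to 2671 (Gcn1) codons, against a median of 461 over all genes. The windows were not matched for length. Capitals mark AAA, GAA and CAA in frame, the sequence is that of the coding strand, and each window lies within 1 coding exon (GRCm38).
Nemf, codons 894 to 913, chr12:69316364-69316423, minus strand, 10 VAA codons: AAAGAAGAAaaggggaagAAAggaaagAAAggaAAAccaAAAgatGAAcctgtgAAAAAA
Ascc3, codons 325 to 344, chr10:50642573-50642632, plus strand, 10 VAA codons: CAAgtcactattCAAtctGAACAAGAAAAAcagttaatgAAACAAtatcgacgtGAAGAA
Gigyf2, codons 397 to 416, chr1:87407627-87407686, plus strand, 9 VAA codons: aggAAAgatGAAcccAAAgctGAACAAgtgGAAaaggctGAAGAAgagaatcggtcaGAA
Gcn1, codons 2228 to 2247, chr5:115614879-115614938, plus strand, 5 VAA codons: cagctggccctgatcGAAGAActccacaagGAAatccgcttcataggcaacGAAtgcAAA
The Nemf window holds 7 AAA codons and no CAA, whereas the Ascc3 window holds 2 AAA, 4 GAA and 4 CAA.

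The footprint counts behind the values were lowest for Pelo, with a median of 122 counts per library, followed by Zfp598 (289) and Ascc3 (334). Single libraries held as few as 25 counts of Ascc3 and 41 of Pelo. The highest median was that of Gigyf2 (2108). In the RNA-seq libraries used here, no member had fewer than 492 counts. Footprint totals per library ranged from 4602092 to 52907878 and RNA-seq totals from 129881946 to 325494304. Levels are given as CPM on 1 scale per assay, for all 23 footprint libraries and for the 12 RNA-seq libraries of replicates 1 to 3. RNA-seq replicates 4 to 6 were left out of the comparisons because 6 of these 11 libraries lay on the wrong side of the torin 1 effect of replicates 1 and 2 for their labels. On that axis, where about -0.5 is the DMSO side and 0.5 the torin 1 side, footprint libraries with DMSO lay between -0.56 and -0.37 and those with torin 1 between -0.04 and 0.95. The 4 control torin 1 footprint libraries of replicates 3 to 6 lay between -0.04 and 0.03. By the same rule, 3 of them (replicates 3, 5 and 6) were not on the torin 1 side. They were kept, and footprint results that rest on them are also given without these 3 libraries, as are efficiencies in control without culture 3. Ctu1 itself was listed only in the DMSO tables. Its footprints were 1.58 to 3.43 CPM (of library totals here) in control and 1.30 to 2.28 in Ctu1 iKO (log2 change -0.54, edgeR adjusted p = 0.353), and its transcripts were 4.54 to 4.76 and 4.37 to 4.96 (log2 change 0.02, edgeR adjusted p = 0.926). The ranges overlapped in both assays, and gene counts do not read out how much of the gene was edited.

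Per kilobase of coding sequence, Edf1 had the most footprints in control cells with DMSO, at 66.2 ± 11.1 CPM per kb (SD, n = 6). It was followed by Gigyf2 (44.8 ± 5.8), Hbs1l (34.1 ± 1.3), Map3k20 (14.7 ± 1.1), Gcn1 (12.7 ± 1.5), Ltn1 (10.5 ± 1.9), Nemf (10.5 ± 1.9), Pelo (8.29 ± 1.05), Zfp598 (7.73 ± 0.99) and Ascc3 (3.37 ± 0.98). The ranges of neighbours in this order did not overlap between Gigyf2 and Hbs1l, Hbs1l and Map3k20, and Zfp598 and Ascc3, and all other neighbours overlapped. The median of 9762 genes was 18.3 CPM per kb, so that only the first 3 lay above it. Per kilobase of transcript, Edf1 (49.5 ± 2.0 CPM per kb, SD, n = 3) and Hbs1l (45.3 ± 0.4) had the most RNA and Ascc3 (3.44 ± 0.31) the least. Zfp598 was in the upper part of this order in transcripts (22.3 ± 2.6 CPM per kb, SD, n = 3), with ranges that did not overlap that of the next gene, Gcn1, and last but for Ascc3 in footprints.

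Footprints of some factors differed more between replicate numbers than between conditions. Ascc3 footprints were 5.29 to 20.9 CPM in the 8 libraries of replicates 1 and 2 and 21.7 to 33.9 CPM in the 15 libraries of replicates 3 to 6. These did not overlap, as was the case in this direction for 0.974% of 9857 genes. Ltn1 (medians 41.6 and 59.8 CPM) and Nemf (22.6 and 35.3 CPM) were also lower in replicates 1 and 2, which for Ltn1 held in 4 of 4 groups and for Nemf in 3. Edf1 went the other way, with medians of 33.3 and 23.4 CPM. The log2 ratio of the medians was 0.78 for Ascc3, 0.64 for Nemf, 0.52 for Ltn1 and -0.51 for Edf1, and the quartiles over all genes were -0.23 and 0.22. In the RNA-seq libraries of replicate 3, the same ratio to replicates 1 and 2 was 0.19 for Ascc3, 0.27 for Nemf, 0.18 for Ltn1 and 0.07 for Edf1, and Ascc3 transcripts were lower in replicates 1 and 2 in 4 of 4 groups. What sets replicates 1 and 2 apart is not stated in the labels. It widens the spread within every group for these 4 genes, and their footprint comparisons between 2 groups carry standard errors of up to 0.31 on the log2 scale.

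**Figure D2:**
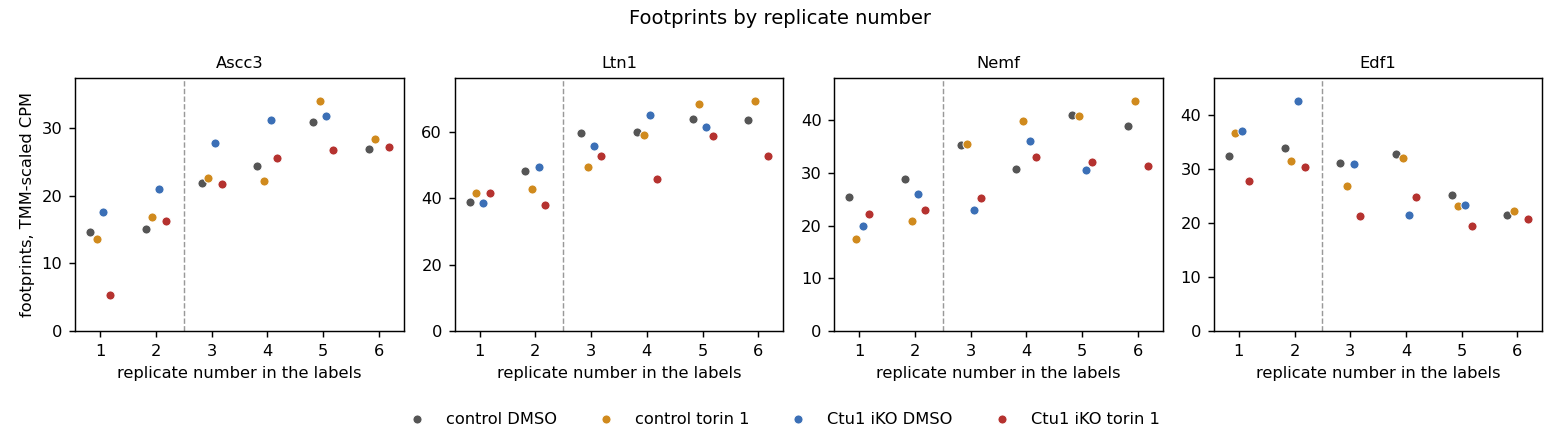
Footprint CPM (vertical axis, from 0) of Ascc3, Ltn1, Nemf and Edf1 by the replicate number in the labels (horizontal axis), 1 point per library and 1 colour per group. Replicates 1 and 2, left of the dashed line, lie below replicates 3 to 6 in every group for Ascc3 and Ltn1.

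Torin 1 lowered Pelo and raised Map3k20 footprints in control cells. In this comparison 2 of the 10 factors were called at an adjusted p under 0.05 (edgeR quasi-likelihood test on all genes), beside 7.24% of 9856 genes tested. Of all genes, 287 were higher and 427 lower with torin 1, or 602 and 327 when scaled by library totals alone. Pelo footprints in control cells were 10.1, 7.17, 9.90, 10.3, 10.5 and 9.69 CPM in replicates 1 to 6 with DMSO. With torin 1 they were 4.58, 4.67, 7.07, 4.65, 6.06 and 6.30 CPM. Every torin 1 library lay below every DMSO library, by a log2 change of -0.78 (standard error 0.16, fold 0.580, edgeR adjusted p = 0.00697). The call was kept without any 1 of the 12 libraries, and among replicates 3 to 6 the log2 change was -0.74 (edgeR adjusted p = 0.0248). Among replicates 1 to 3 alone it was -0.73 and not called. Without the 3 torin 1 libraries that were not on the torin 1 side, it was -1.05 (edgeR adjusted p = 0.00919), and Pelo was then the 1 factor called, beside 5.03% of all genes.

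Map3k20 footprints in control cells were 39.1, 37.4, 36.4, 33.4, 33.0 and 32.9 CPM with DMSO and 51.1, 49.5, 44.9, 40.2, 39.2 and 43.4 CPM with torin 1. The lowest torin 1 library lay just above the highest DMSO library. The log2 change was 0.34 (standard error 0.10, edgeR adjusted p = 0.0467), and the call was lost in 9 of 12 fits without 1 library, where the adjusted p reached 0.104. Without the 3 torin 1 libraries named above, it was 0.40 and the call was lost (edgeR adjusted p = 0.0761). With the replicate number as a block, the change was 0.33 (edgeR adjusted p = 0.00575). Gcn1 footprints were 85.2 to 120 CPM with DMSO and 65.7 to 99.7 CPM with torin 1, which overlapped (log2 change -0.35, standard error 0.11, edgeR adjusted p = 0.0716). With the block, Gcn1 had a log2 change of -0.35 (edgeR adjusted p = 0.00114) and Gigyf2 one of -0.20 (edgeR adjusted p = 0.0354), so that 4 of the 10 factors were called, beside 20.5% of all genes in the blocked fit. Gcn1 was also called with DESeq2 (-0.35, adjusted p = 0.0287), beside 10.8% of all genes, with all 4 groups in 1 fit (edgeR adjusted p = 0.0468), beside 6.91%, and with a term for replicates 1 and 2 (edgeR adjusted p = 0.0338), beside 12.4%. Without the 3 torin 1 libraries it was -0.31 (edgeR adjusted p = 0.24). The other 6 factors had log2 changes between -0.11 (Hbs1l) and 0.08 (Zfp598), with standard errors up to 0.23. Without the 3 torin 1 libraries they lay between -0.36 (Nemf) and 0.18 (Edf1), with Ascc3 at -0.35 and Ltn1 at -0.22. Standard errors were up to 0.26, and Ascc3 and Edf1 changed sign. That subset sets torin 1 replicates 1, 2 and 4 against DMSO replicates 1 to 6. The 4 genes named here are those whose footprints differed between replicates 1 and 2 and the others. Blocked by replicate number, Nemf was -0.07, Ascc3 0.03, Ltn1 -0.02 and Edf1 -0.04.

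**Figure D3:**
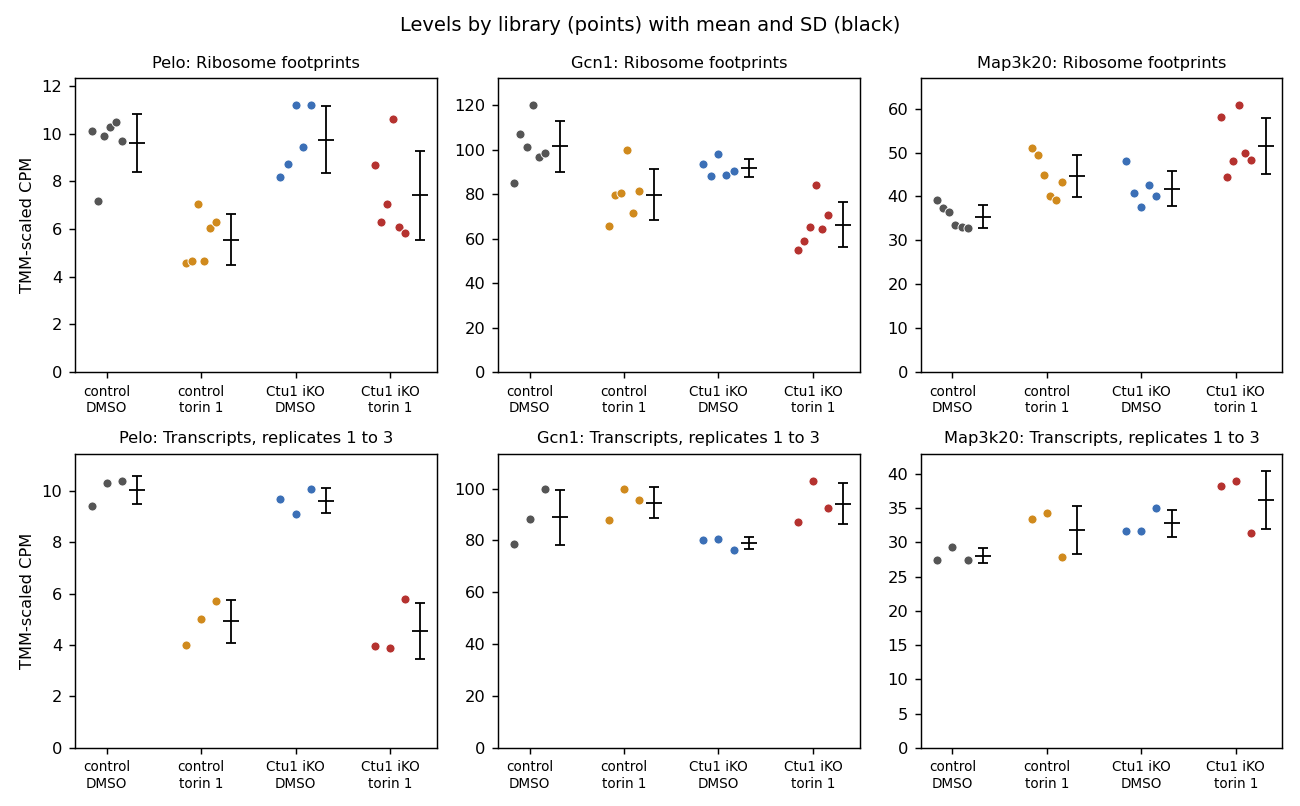
TMM-scaled CPM (vertical axes, from 0) of Pelo, Gcn1 and Map3k20 by group, with footprints in the upper row (6, 6, 5 and 6 libraries) and transcripts of replicates 1 to 3 in the lower row. Points are libraries and black marks give the mean and SD, and Pelo transcripts with torin 1 lie below those with DMSO in both genotypes.

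Transcripts of Pelo fell with torin 1 as its footprints did. In control cells they were 9.40, 10.3 and 10.4 CPM with DMSO and 4.02, 5.03 and 5.71 CPM with torin 1, without overlap (log2 change -1.03, standard error 0.14, edgeR adjusted p = 0.00479). Pelo was the only 1 of the 10 factors called in this comparison, beside 13.1% of 9617 genes (547 higher and 712 lower, or 445 and 891 with library totals alone). In cultures read out in bulk, fewer cells that express a gene and less RNA per cell cannot be told apart. It was called in 6 of 6 fits without 1 library. With all RNA-seq replicates as labelled, Pelo had a log2 change of -0.59 and was not called (edgeR adjusted p = 0.0602), while Zfp598 was (-0.27, edgeR adjusted p = 0.0308). With the block, Zfp598 (log2 change -0.22, edgeR adjusted p = 0.00206), Ltn1 (0.19, edgeR adjusted p = 0.0218) and Map3k20 (0.17, edgeR adjusted p = 0.0369) were also called, so that 4 of 10 were called beside 43.7% of all genes. Map3k20 transcripts were 27.4, 29.3 and 27.5 CPM with DMSO and 33.4, 34.3 and 27.8 CPM with torin 1, higher in cultures 1 and 2 and close in culture 3.

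The counts of Pelo are uncertain, because Pelo shares 739 exon bases on the same strand with Gm49395, a gene that is also listed. Pelo lies on chromosome 13 of GRCm38 from 115088355 to 115090186 on the minus strand, and it also lies across Itga1 on that strand without sharing exon bases. Gm49395 transcripts were 4.53 to 4.56 CPM in control with DMSO and 2.09 to 2.32 CPM with torin 1 (log2 change -1.02, standard error 0.11, edgeR adjusted p = 0.00238). Its footprints had a log2 change of -0.92 (standard error 0.39, edgeR adjusted p = 0.185). Footprints were counted with the gene counting option of STAR, which counts reads that overlap 1 gene only. How RNA-seq reads in the shared bases were assigned is not given in the sources used here. Nemf shares 166 exon bases with Klhdc2 on the opposite strand, and which strand was counted is not given either.

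In Ctu1 iKO cells, torin 1 lowered footprints of Gcn1. They were 93.6, 88.2, 97.9, 88.8 and 90.5 CPM with DMSO and 54.8, 59.0, 65.2, 84.1, 64.4 and 70.4 CPM with torin 1. The groups did not overlap, with a log2 change of -0.47 (standard error 0.11, fold 0.721, edgeR adjusted p = 0.0186). Gcn1 was the 1 factor of 10 that was called, beside 8.0% of 9855 genes (343 higher and 445 lower, or 580 and 317 with library totals alone). The call was kept without any 1 of 11 libraries, with an adjusted p of at most 0.0498. With library totals alone the change was -0.38 (edgeR adjusted p = 0.0565). It was -0.65 among replicates 1 to 3 and -0.39 among replicates 3 to 6, and neither was called.

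Transcripts of Gcn1 did not follow. In Ctu1 iKO they were 80.3, 80.5 and 76.3 CPM with DMSO and 87.2, 103 and 92.4 CPM with torin 1, higher in 3 of 3 cultures (log2 change 0.24, standard error 0.09, edgeR adjusted p = 0.144). With the block the change was again 0.24 (edgeR adjusted p = 0.0267), 1 of 3 factors called in that fit beside 35.1% of all genes. Translational efficiency, the change in footprints relative to that in transcripts over cultures 1 to 3, therefore fell by 0.89 on the log2 scale (standard error 0.16, edgeR adjusted p = 0.0105). The log2 ratio of Gcn1 footprint to transcript CPM was 0.22, 0.13 and 0.36 in Ctu1 iKO cultures with DMSO and -0.67, -0.80 and -0.50 with torin 1. In control cultures it was 0.12, 0.28 and 0.02 with DMSO and -0.42, -0.33 and -0.25 with torin 1. The control change in efficiency was -0.46 (standard error 0.18, edgeR adjusted p = 0.587) and without torin 1 culture 3 it was -0.51 (edgeR adjusted p = 0.529), and whether the 2 efficiency changes differ was not tested. In both genotypes the 3 torin 1 cultures lay below the 3 DMSO cultures. Gcn1 was 1 of 10 factors called for efficiency in Ctu1 iKO, beside 1.67% of 9845 genes (8 higher and 156 lower, or 26 and 123 with library totals alone), and none of the 10 was called in control, beside 1.14% of 9848 genes (1 at an unadjusted p under 0.05). The Gcn1 call was lost in 4 of 6 fits without 1 culture and with library totals alone (-0.73, edgeR adjusted p = 0.0634), a scaling that moves the median of all genes by 0.16 in Ctu1 iKO and by 0.13 in control. It was smaller and still called with all footprint replicates (-0.71, edgeR adjusted p = 0.0262) and with all replicates of both assays as labelled (-0.54, edgeR adjusted p = 0.0424).

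Pelo transcripts in Ctu1 iKO were 9.68, 9.11 and 10.1 CPM with DMSO and 3.95, 3.88 and 5.81 CPM with torin 1 (log2 change -1.09, standard error 0.18, edgeR adjusted p = 0.0143). They did not overlap, and Pelo was the only 1 of the 10 that was called, beside 8.25% of 9619 genes (359 higher and 435 lower, or 289 and 650 with library totals alone). The call was lost in 4 of 6 fits without 1 library, with log2 changes from -1.31 to -0.99. Pelo footprints in the same cells overlapped, with 8.18 to 11.2 CPM with DMSO and 5.85 to 10.6 CPM with torin 1 (log2 change -0.40, standard error 0.20, edgeR adjusted p = 0.271). Gigyf2 transcripts were 134, 151 and 138 CPM with DMSO and 169, 185 and 166 CPM with torin 1, without overlap (log2 change 0.29, standard error 0.09, edgeR adjusted p = 0.088). With the block Gigyf2 was called (0.29, edgeR adjusted p = 0.00636), as it was with DESeq2, beside 16.7% of all genes, and with 4 groups in 1 fit, beside 17.9%. With all RNA-seq replicates as labelled, Pelo transcripts in Ctu1 iKO had a log2 change of -0.40 and were not called (edgeR adjusted p = 0.971). Gigyf2 footprints had a log2 change of 0.04 (standard error 0.13). Map3k20 footprints were 37.6 to 48.0 CPM with DMSO and 44.4 to 60.8 CPM with torin 1 (log2 change 0.30, edgeR adjusted p = 0.155).

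**Figure D4:**
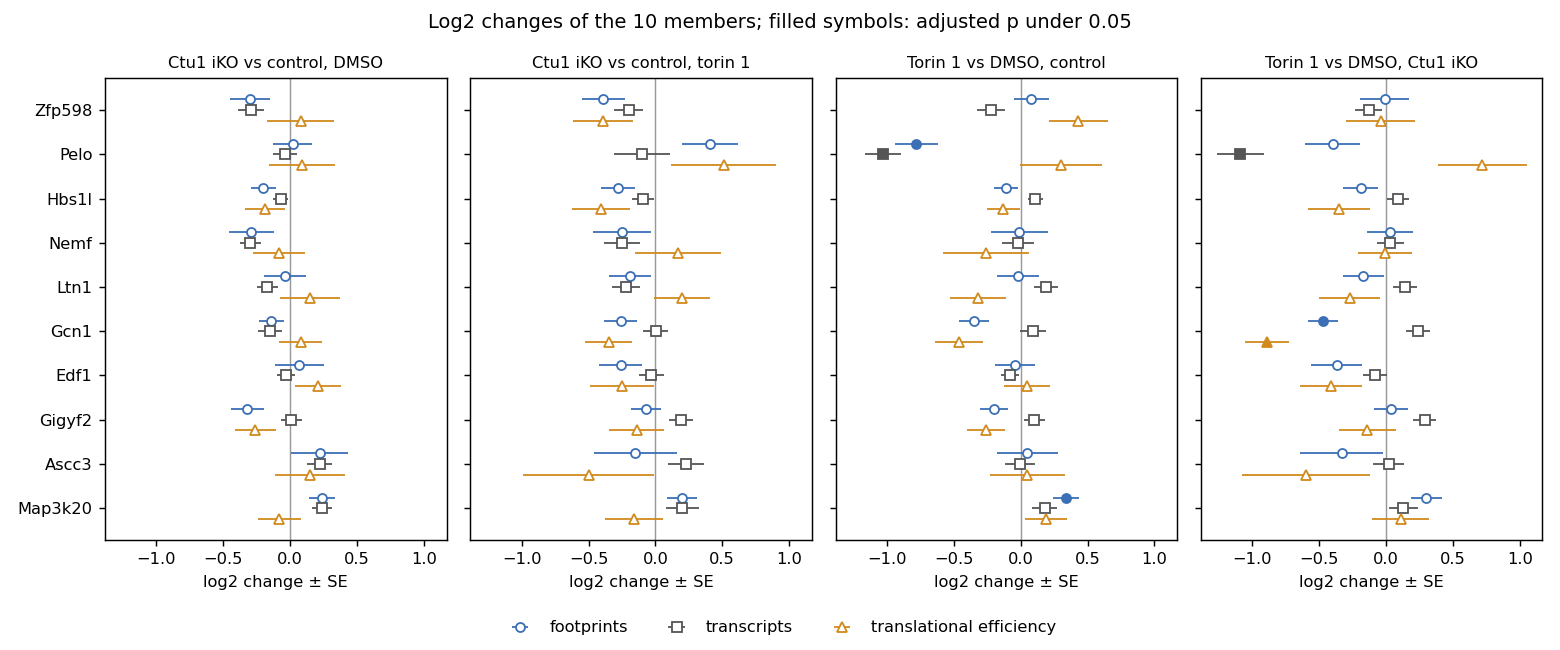
Log2 changes with their standard errors (horizontal axes) of the 10 factors (rows) in 4 comparisons, for footprints (circles), transcripts (squares) and translational efficiency (triangles). Filled symbols are called at an adjusted p under 0.05: Pelo and Map3k20 in control with torin 1, and Pelo and Gcn1 in Ctu1 iKO with torin 1.

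Between Ctu1 iKO and control with DMSO, none of the 10 factors was called in footprints, and calls in transcripts depended on the fit. In footprints of cultures with DMSO, 0 of 10 were called, beside 2.66% of 10397 genes with edgeR (169 higher and 108 lower, or 218 and 80 with library totals alone). With DESeq2 the count was also 0, and 3 of the 10 had an unadjusted edgeR p under 0.05. These were Gigyf2 (log2 change -0.32, standard error 0.12, adjusted p = 0.186), Map3k20 (0.24, standard error 0.10, adjusted p = 0.199) and Hbs1l (-0.20, standard error 0.09, adjusted p = 0.265). Hbs1l footprints were 66.8 to 72.7 CPM in 6 control cultures and 49.0 to 64.9 CPM in 5 Ctu1 iKO cultures, which did not overlap. Gigyf2 footprints overlapped, with 150 to 203 CPM in control and 116 to 174 CPM in Ctu1 iKO. Nemf, with the highest share of VAA codons, had 25.4 to 41.1 CPM in control and 20 to 36 CPM in Ctu1 iKO (log2 change -0.29, standard error 0.17, adjusted p = 0.384). Zfp598, with a low share, had a log2 change of nearly the same size (-0.30, standard error 0.15, adjusted p = 0.32). Over the 10 factors the median log2 change was -0.09, with 6 below 0.

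In transcripts with DMSO, again 0 of 10 were called with edgeR, beside 5.12% of 10119 genes, while 4 of the 10 had an unadjusted p under 0.05. With DESeq2, 2 of 10 were called, beside 15.1% of all genes, and with all RNA-seq replicates as labelled 3 of 10, beside 26.4%. Nemf transcripts were 30.7, 32.3 and 35.7 CPM in control and 25.8, 27.4 and 26.0 CPM in Ctu1 iKO (log2 change -0.30, standard error 0.08, edgeR adjusted p = 0.0701). Zfp598 transcripts were 68.0, 72.0 and 84.4 CPM and 57.3, 58.8 and 65.3 CPM (log2 change -0.29, standard error 0.10, edgeR adjusted p = 0.123). Map3k20 transcripts went the other way, with 27.4, 29.3 and 27.5 CPM in control and 31.7, 31.6 and 35.1 CPM in Ctu1 iKO (log2 change 0.24, standard error 0.07, edgeR adjusted p = 0.0992). For these 3 genes the groups did not overlap, and neither did they for Hbs1l (log2 change -0.07) and Ltn1 (-0.17). The share of all genes without overlap in this comparison of 3 libraries each is not given here. With the block all 3 were called, with adjusted p of 0.0126 for Nemf, 0.00613 for Zfp598 and 0.0267 for Map3k20, and so was Ascc3 (log2 change 0.22, edgeR adjusted p = 0.0281). These 4 of 10 stand beside 28% of all genes called in the blocked fit. For Nemf, Zfp598, Map3k20 and Ascc3, footprints and transcripts had log2 changes of the same sign and nearly the same size. No gene was called for translational efficiency, that is 0% of 10386 genes (399 at an unadjusted p under 0.05, and 0 of the 10 factors).

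Under torin 1, footprints of 8 of the 10 factors had log2 changes below 0 in Ctu1 iKO against control, with a median of -0.22 beside 0.01 over all genes. This tally changed without the 3 control torin 1 libraries that were not on the torin 1 side. Without them 4 of 10 were below 0 (Edf1, Zfp598, Gcn1 and Hbs1l), with a median of 0.01 beside 0.02. Nemf went from -0.25 to 0.10, Ascc3 from -0.15 to 0.24 and Ltn1 from -0.19 to 0.02. That subset sets control replicates 1, 2 and 4 against Ctu1 iKO replicates 1 to 6. The difference between replicate numbers is therefore not balanced between its groups. Nemf (-0.20), Ascc3 (-0.22) and Ltn1 (-0.18) stayed below 0 with the replicate number as a block. With all libraries, none of the 10 was called with edgeR, beside 4.83% of 9913 genes (221 higher and 258 lower, or 281 and 202 with library totals alone), 3 had an unadjusted p under 0.05, and DESeq2 called 0. Zfp598 footprints were 18.9 to 27.5 CPM in control and 12.3 to 20 CPM in Ctu1 iKO (log2 change -0.39, standard error 0.16, edgeR adjusted p = 0.191). Gcn1 (-0.26, standard error 0.12) and Hbs1l (-0.28, standard error 0.13) were the other two. With the replicate number as a block, Gcn1 was called (-0.27, edgeR adjusted p = 0.0275) and the other 9 were not, beside 14.4% of all genes. Without the 3 control libraries that were not on the torin 1 side, edgeR called 0 of 10, 3 had an unadjusted p under 0.05 (Edf1, Zfp598 and Pelo), and Gcn1 had a log2 change of -0.30. Pelo had the largest positive value (0.41, standard error 0.21, edgeR adjusted p = 0.322), which was 0.68 (standard error 0.28, edgeR adjusted p = 0.284) without the 3 control libraries. In transcripts under torin 1, 0 of 10 were called with edgeR or DESeq2 and 0 had an unadjusted p under 0.05, beside 1.31% of 9650 genes called with edgeR (92 higher and 34 lower, or 57 and 41 with library totals alone and 631 and 461 with DESeq2). With the block 6 of the 10 were called, of which Ascc3 (0.23), Map3k20 (0.19) and Gigyf2 (0.19) were higher and Nemf (-0.25), Ltn1 (-0.22) and Zfp598 (-0.20) lower, with adjusted p between 0.0232 and 0.0328, beside 32.8% of all genes. For translational efficiency, 0 of 10 were called, beside 0.111% of 9901 genes, and 0 of the 10 had an unadjusted p under 0.05.

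The effect of torin 1 was not shown to differ between the genotypes for any of the 10 factors. In footprints, 0 of 10 were called for the difference with edgeR and with DESeq2, beside 0.639% of 9857 genes, and 0 had an unadjusted p under 0.05. Without the 3 control libraries that were not on the torin 1 side, edgeR called 0 of 10, and the difference for Pelo was 0.65 (standard error 0.27, adjusted p = 0.652), the 1 factor with an unadjusted p under 0.05. The difference was 0.39 for Pelo (standard error 0.25) and -0.12 for Gcn1 (standard error 0.15). In transcripts, edgeR called 0% of 9616 genes (140 at an unadjusted p under 0.05, 0 of them among the factors) and DESeq2 called 3 genes, none of which was a factor. The comparisons share their control or DMSO cultures pairwise, so that their values are not independent of each other.

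The wider pathway was described with 8 lists of partner genes. In control cells with torin 1, 9 of 62 partner genes were called in footprints, 1 higher and 8 lower, with a median log2 change of -0.07 beside 0.01 over all genes and 7.24% of all genes called. Outside the 40S list 4 of 57 were called, a share near that of all genes. These were 1 of 5 genes among the partners of Ascc3 and Gigyf2, 2 of 8 among 40S ubiquitin ligases and deubiquitinases and 1 of 7 among kinases downstream of Map3k20. The lists of no-go decay (13 genes), 60S nascent chain quality control (7), UFMylation (7) and partners of Gcn1 (10) had list medians between -0.09 and -1.6e-03. All 5 genes of the list of 40S proteins that are ubiquitylated at stalls and Rack1, a 40S protein at the interface of collided ribosomes, were among those lowered, also without the 3 torin 1 libraries that were not on the torin 1 side. Rps20, one of the 40S proteins that Zfp598 marks, had 295 to 458 footprint CPM in control cells with DMSO and 135 to 183 CPM with torin 1 (log2 change -1.24, standard error 0.11, edgeR adjusted p = 1.93e-06). Rps10 (-1.15), Rack1 (-0.98), Rps2 (-0.96) and Rps3 (-0.89) were lower too. Their transcripts had log2 changes of 0.10 to 0.26, of which edgeR called 0 and DESeq2 2. For translational efficiency all 5 were lower (Rps20, log2 change -1.53, edgeR adjusted p = 8.76e-05; 4 of 5 called with library totals alone). Without torin 1 culture 3, Rps20 had -1.52 (edgeR adjusted p = 9.89e-04) and 4 of 5 were called, and Rps2 was not (-0.91, edgeR adjusted p = 0.167). The Rps2 call was lost in 5 of 6 fits without 1 culture and with the culture as a block. The Rps10 call was lost in 1 of 6 such fits. These 5 mRNAs belong to the TOP class whose translation depends on mTOR, and the ligase Zfp598 itself had footprint changes within its standard error.

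In Ctu1 iKO cells with torin 1, 11 of 62 partner genes were called in footprints, 2 higher and 9 lower, with a median of -0.13 beside 0.02 and 8.0% of all genes called. The 40S list was lowered in 5 of 5 genes, with log2 changes from -1.41 (Rps3) to -2.06 (Rps20, standard error 0.10, edgeR adjusted p = 4.08e-09). Rps20 footprints were 307 to 397 CPM with DMSO and 76.7 to 96.2 CPM with torin 1. Under torin 1, the list was lower in Ctu1 iKO than in control in 5 of 5 genes, from -1.09 (Rps2) to -0.50 (Rps10), beside 4.83% of all genes called. For translational efficiency in this comparison, 1 of 5 was called (Rps20) and 0 with library totals alone or without control culture 3. The Rps20 call was lost in 6 of 6 fits without 1 culture. The difference between the torin 1 effects was called for 3 of 5 genes, beside 0.639% of all genes. These were Rps20 (-0.81, edgeR adjusted p = 0.00253), Rps2 (-1.01, edgeR adjusted p = 0.00326) and Rps3 (-0.51, edgeR adjusted p = 0.0291). Without the 3 control libraries that were not on the torin 1 side, it was called for Rps20 (-0.78, edgeR adjusted p = 0.0245) and Rps2 (-1.14, edgeR adjusted p = 0.00498) and not for Rps3 (-0.51, edgeR adjusted p = 0.103), beside 0.548% of all genes. The Rps3 call was also lost in 12 of 23 fits without 1 library. With DMSO, the log2 changes of the 5 genes between Ctu1 iKO and control lay between -0.14 and -0.07.

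Among transcripts, the partner genes were called with torin 1 at shares near those of all genes. In control cells 9 of 62 were called, 5 higher and 4 lower, beside 13.1% of all genes. In Ctu1 iKO cells 7 of 62 were called, 5 higher and 2 lower, beside 8.25%, and the list median was -0.06 in each. Gigyf1, the paralogue of Gigyf2, had 9.89 to 12.2 CPM with DMSO and 18.3 to 19.8 CPM with torin 1 in control (log2 change 0.77, edgeR adjusted p = 0.00377). In Ctu1 iKO it had 8.99 to 11 CPM and 19.3 to 21.3 CPM (log2 change 1.03, edgeR adjusted p = 0.00442). Gtpbp2, a GTPase that like Hbs1l acts with Pelo, rose by 0.65 in control and 0.70 in Ctu1 iKO (edgeR adjusted p = 0.0016 and 0.00586). Impact, which competes with Gcn2 for Gcn1, rose by 0.56 and 0.66 (edgeR adjusted p = 0.00796 and 0.00758). Usp10, a deubiquitinase that removes ubiquitin from 40S proteins, had 136 to 147 CPM with DMSO and 67.5 to 84.7 CPM with torin 1 in control (log2 change -0.85, edgeR adjusted p = 0.00279) and had a log2 change of -0.97 in Ctu1 iKO (edgeR adjusted p = 0.00325). Mapk14, which encodes the p38α kinase downstream of Map3k20, had log2 changes of -0.57 and -0.63 (edgeR adjusted p = 0.00611 and 0.0111). In Ctu1 iKO, the Mapk14 call was lost in 2 of 6 fits without 1 library and the Impact call in 1 of 6. With all RNA-seq replicates as labelled, none of these 5 partners was called in Ctu1 iKO (edgeR adjusted p from 0.969 to 0.974), where edgeR called 0 of 9633 genes (466 at an unadjusted p under 0.05). In control, Gtpbp2, Impact and Usp10 were then called, and Gigyf1 (0.62, edgeR adjusted p = 0.0841) and Mapk14 (-0.36, edgeR adjusted p = 0.0716) were not.

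Between Ctu1 iKO and control with DMSO, 1 of 63 partner genes was called in footprints, beside 2.66% of all genes, and 1 in transcripts, beside 5.12%. Ufl1, the ligase that attaches UFM1 to the 60S subunit, had 20.2 to 24.1 footprint CPM in control and 11 to 16.7 CPM in Ctu1 iKO, without overlap (log2 change -0.65, standard error 0.12, edgeR adjusted p = 0.0144). The call was kept without any 1 of 11 libraries and lost with replicates 1 to 3 or 3 to 6 alone. Ufl1 transcripts were 14.1 to 17.9 CPM in control and 9.38 to 12.5 CPM in Ctu1 iKO, also without overlap. They were not called among replicates 1 to 3. With all RNA-seq replicates as labelled they were (-0.33, edgeR adjusted p = 0.0448), beside 26.4% of all genes. Map2k6, a kinase between Map3k20 and p38, had 17.3 to 17.5 transcript CPM in control and 12 to 13.8 CPM in Ctu1 iKO (log2 change -0.38, standard error 0.09, edgeR adjusted p = 0.0491), a call that was lost in 6 of 6 fits without 1 library, where the adjusted p reached 0.187. Under torin 1, 6 of 62 genes were called in footprints, lower in Ctu1 iKO, beside 4.83% of all genes, and 5 of them were the 40S list. Without the 3 control libraries that were not on the torin 1 side, 3 of 62 were called, each from the 40S list (Rps2, Rps20 and Rps3), beside 1.56% of all genes. The other was Ascc1, a subunit of the ASC-1 complex of Ascc3, which is named because its values stood out. Ascc1 footprints under torin 1 were 10.8 to 16 CPM in control and 2.12 to 8.93 CPM in Ctu1 iKO, without overlap (log2 change -1.03, standard error 0.24, edgeR adjusted p = 0.0264). Without those 3 control libraries it was -1.01 and not called (edgeR adjusted p = 0.184), and the call was lost in 5 of 12 fits without 1 library. Its transcripts under torin 1 were 18.1 to 20.6 CPM and 17.6 to 19.3 CPM, which overlapped. With torin 1 against DMSO in Ctu1 iKO, Ascc1 footprints had a log2 change of -0.94 (edgeR adjusted p = 0.0485), and this call was lost in 9 of 11 fits without 1 library.

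Across the 23 footprint libraries, the genes whose log2 CPM (pseudocount 1) followed Gcn1 most closely were Fasn, the fatty acid synthase (Pearson r = 0.934), and Eef1g, a subunit of elongation factor 1 (r = 0.911). For Edf1 they were Ccdc38 (r = 0.932) and Tpm2 (r = 0.930), and for Zfp598 Gm49510 (r = 0.797) and Nsd3 (r = 0.764), each the highest of 9856 genes. Within the set, Nemf and Ltn1, which act on the same 60S subunit, had r = 0.82, and Ltn1 and Ascc3 had r = 0.75. Gcn1 and Map3k20 ran opposite (r = -0.71). The libraries share treatment, genotype and replicate number. Among pairs within the set, those with the highest values join genes that were low in replicates 1 and 2.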

How the data were processed

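Footprint and RNA-seq counts per gene were analysed as the authors deposited them, as raw counts without normalization. Per the authors' methods and processing notes, footprint reads were trimmed with cutadapt 3.4, molecular identifiers were handled with UMI-tools 1.1.1, rRNA and short fragments were removed, and STAR 2.5.3a was used for alignment and for gene counting. For RNA-seq the paper points to a workflow of the sequencing facility (RNAseqWorkflow), and its counting settings are not given in the sources used here. The labels name the mouse genome mm10, the paper's methods a human one. RNA-seq libraries were stranded and poly(A)-selected, and all their counts were even. Only genes with a footprint count of at least 100 in some library are listed, and 11 symbols on more than 1 entry were left out.

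Counts were fitted with edgeR 4.0.16 in R 4.3.3 (TMM, mean count of 10 or more, quasi-likelihood test, Benjamini-Hochberg adjustment over all genes tested, called under 0.05), without covariates. Footprints used all replicates, and transcripts and translational efficiency (interaction of assay and group) used replicates 1 to 3. SD and n refer to libraries. The paper's methods describe 2 biologically independent replicates, made on consecutive days. Its legends give 5 or 6 independent experiments for ribosome profiling and 2 for RNA sequencing. The labels number up to 6 per group and do not give the day of any. P-values measure the spread between these libraries.

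Same-numbered libraries deviated together (every pair with r over 0.1 across genes) for transcripts in all 4 comparisons (r from 0.49 to 0.84), for footprints between torin 1 and DMSO in control (0.44 to 0.64) and for footprints between genotypes under torin 1 (0.32 to 0.55). There the blocked value is given where it changes a call. Footprints between genotypes with DMSO and between treatments in Ctu1 iKO did not meet this. For translational efficiency the values given come from fits without a block, and the blocked alternative used the culture. In that alternative, Gcn1 with torin 1 in Ctu1 iKO had a log2 change of -0.89 (edgeR adjusted p = 0.0195).

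The factors, the partner lists and the tests were chosen with earlier results of these data known. Named genes are the 10 factors, Ctu1, per comparison up to 5 called partner genes with the smallest adjusted p, and the 2 genes most like Zfp598, Gcn1 and Edf1. Gm49395, Ascc1, the keratins and the windows were chosen after the values were seen. Alternatives were DESeq2 1.42.0, library totals, no filter, a block, all groups in 1 fit, other sets of replicates and leaving out each library. A coding sequence of GENCODE M21 was matched to 99% of symbols. Scripts were tested on simulated data. Python 3.11.15, pandas 2.3.3, numpy 2.4.6 and matplotlib 3.10.9 were used.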

Additional observations from a re-analysis of the deposited data

Results flagged for a closer look

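In 40 groups of footprint values (10 factors in 4 groups), 2 held a library far from the others by Dixon's ratio, which chance gives in about 1 of 20 groups. Pelo in control replicate 2 with DMSO had 7.17 CPM, while the other 5 libraries lay between 9.69 and 10.5 CPM. The comparison of Pelo with torin 1 was called with and without that library. Hbs1l in Ctu1 iKO replicate 1 with DMSO had 49.0 CPM, below the other 4 at 61.8 to 64.9 CPM.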

How the results depend on the processing

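Of 2200 refitted values of the 10 factors, 177 changed sign, 0 of them called in either fit. The number of factors called changed under these settings. With the replicate number as a block, the factors called went from 0 to 4 for transcripts between genotypes with DMSO, from 0 to 6 for transcripts and from 0 to 1 for footprints under torin 1, from 2 to 4 for footprints and from 1 to 4 for transcripts with torin 1 in control, and from 1 to 3 for transcripts with torin 1 in Ctu1 iKO. For footprints whose numbers do not pair, the block gave 0 between genotypes with DMSO (364 genes against 277, 2 of 5 libraries closest to their own number) and 1 with torin 1 in Ctu1 iKO (983 genes against 788, 3 of 5 libraries). It changed no other member count. For footprints with torin 1 in control, DESeq2, all groups in 1 fit and the term for replicates 1 and 2 called 3 each (Pelo, Map3k20 and Gcn1), and leaving out the 3 control torin 1 libraries that were not on the torin 1 side called 1 (Pelo). DESeq2 called 2 factors in transcripts between genotypes with DMSO and 2 with torin 1 in Ctu1 iKO. Library totals called 0 in footprints and 0 in translational efficiency with torin 1 in Ctu1 iKO. All groups in 1 fit called 2 in transcripts with torin 1 in Ctu1 iKO. All RNA-seq replicates as labelled called 3 in transcripts between genotypes with DMSO and 0 with torin 1 in Ctu1 iKO, and with torin 1 in control they called 1, which was Zfp598 in place of Pelo. In footprints with torin 1, replicates 1 to 3 alone called 0 in control and 0 in Ctu1 iKO, and replicates 3 to 6 called 1 and 0. These subsets of footprint libraries and the term were chosen after seeing the data. Leaving out 1 library gave 1 to 3 factors for footprints with torin 1 in control, and 0 to 1 for transcripts and for translational efficiency with torin 1 in Ctu1 iKO. These last 2 calls were lost without Ctu1 iKO DMSO replicates 1, 2 or 3 or torin 1 replicate 2, and the cause was not tested.

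Counts over all genes moved more. Between genotypes with DMSO, footprint calls went from 277 to 700 with DESeq2, 737 with a term for replicates 1 and 2, 2 with replicates 1 to 3, 184 with replicates 3 to 6 and 144 to 285 without 1 library. Transcript calls went from 518 to 1530 with DESeq2, 2831 with the block, 2677 with all RNA-seq replicates and 0 to 511 without 1 library, and efficiency calls from 0 to 1 with the block, 2 with all footprint replicates and 5 with all replicates. Under torin 1, footprint calls went from 479 to 842 with DESeq2 and with all groups in 1 fit, 914 with the term, 1425 with the block, 1 with replicates 1 to 3 and 301 to 572 without 1 library, and 155 without the 3 control libraries. Transcript calls went from 126 to 1092 with DESeq2, 970 in 1 fit, 3162 with the block, 0 with all RNA-seq replicates and 1 to 406 without 1 library, and efficiency calls from 11 to 3 with library totals, 60 with all footprint replicates, 112 with all replicates and 0 to 2 without 1 culture. With torin 1 in control, footprint calls went from 714 to 1218 with the term, 2019 with the block and 138 with replicates 1 to 3, transcript calls from 1259 to 1963 with DESeq2, 4206 with the block and 412 to 1233 without 1 library, and efficiency calls from 112 to 61 to 104 without 1 culture. With torin 1 in Ctu1 iKO, footprint calls went from 788 to 1187 in 1 fit, 1368 with the term and 178 with replicates 1 to 3, transcript calls from 794 to 1609 with DESeq2, 1717 in 1 fit, 3378 with the block, 0 with all RNA-seq replicates and 123 to 1123 without 1 library, and efficiency calls from 164 to 253 with all replicates and 104 to 162 without 1 culture (104 and 108 without Ctu1 iKO DMSO replicates 1 and 2). The difference between torin 1 effects in footprints went from 63 to 109 with DESeq2, 139 with the block, 121 with the term and 2 with replicates 1 to 3.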

Other observations

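RNA-seq libraries of replicates 4 to 6 entered the comparisons only where all replicates as labelled are named. On a scale over all 23 RNA-seq libraries, Pelo transcripts in control with torin 1 were 7.39, 9.72 and 9.08 CPM in replicates 4, 5 and 6. In Ctu1 iKO they were 5.83 and 6.0 CPM in replicates 4 and 5 with DMSO, and 5.56, 8.71 and 9.17 CPM in replicates 4, 5 and 6 with torin 1. Control replicates 4 to 6 with DMSO had 11.7, 9.79 and 11 CPM. The libraries labelled control torin 1 replicates 5 and 6, Ctu1 iKO DMSO replicates 4 and 5 and Ctu1 iKO torin 1 replicates 5 and 6 are those whose profiles over all genes lay against their labels.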
